A study of Mus musculus with 2 samples.

Results

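The insulin-like growth factor (IGF) genes described here are 10 of the 33696 genes counted in 2 single-cell RNA sequencing (scRNA-seq) libraries of healing mouse digits. They were chosen by gene symbol alone: both ligands (*Igf1* and *Igf2*), both receptors (*Igf1r* and *Igf2r*) and 6 binding proteins (*Igfbp2* to *Igfbp7*). All 10 had UMIs in kept cells of both libraries. A UMI is the molecular tag that lets PCR copies of a captured transcript be counted once.

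The study asks how FGF8, a fibroblast growth factor, alters the response of the middle phalanx (P2) to amputation, a level at which mouse digits do not regenerate. Hindlimb digits of ICR mice were amputated through P2 at postnatal day 3 (PN3), and a bead carrying FGF8 (500 ng/µl) or 0.1% BSA was implanted at PN7. Tissue distal to the stump was collected 24 h later, at PN8, after removal of the epithelium, and dissociated with Liberase. Each condition was 1 pool of cells from 20 digits of 5 mice, males and females together, captured as 1 library. Both groups were amputated and both carried a bead. Digits that would not have regenerated are probably part of the FGF8 pool.

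IGF1 and IGF2 are secreted growth factors that signal through the receptor tyrosine kinase IGF1R to promote growth and survival of many cell types, chondrocytes and osteoblasts among them. IGF2R carries no kinase and takes IGF2 to the lysosome. The binding proteins hold IGFs in plasma and in the matrix and can either limit or prolong their action, until proteases such as PAPPA and HTRA1 cut them.

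The FGF8 library held 124889213 UMIs in 7249 barcodes and the BSA library 67739460 UMIs in 3703 barcodes. Filters on genes and mitochondrial share kept 6715 and 3252 cells, with medians of 12251 and 15377 UMIs. Of the kept barcodes, 4 occurred in both libraries. Of cells whose sex could be called from *Xist* and Y-linked genes, 24.6% were female with FGF8 and 79.3% with BSA. Treatment, pool, dissection, capture and sex makeup therefore cannot be told apart as sources of a difference, and values by called sex are given beside the main results, female first. With 1 library per condition there is no replicate check and no test was made. Levels are CPM (UMIs of a gene per 1000000 UMIs of the same cells), and libraries are compared by the log2 of the CPM ratio, FGF8 over BSA. Where values are given in pairs, FGF8 comes first. Every interval is a 95% interval that covers counting error only. A UMI stands for 1 captured transcript, so levels of different genes are set side by side as UMIs, without scaling to length. Whether capture differed with gene length or RNA quality was not tested.

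Cells were named from marker lists. The largest cluster held markers of fibroblasts (10 of 10 detected) together with a group of keratinocyte-like cells, which re-clustering set apart; keratinocyte-like cells remained although the epithelium had been removed. The 3574 FGF8 and 1846 BSA cells left are called fibroblast-like here. They comprised 6 subclusters, each with at least 9 of 10 fibroblast markers, numbered because their leading genes differed. Subcluster 0 was led by *Zfp536*, *Lsamp* and *Tmem132c*, and subcluster 4 by *Lpl*, *Dlk1* and *Agtr2*. Subcluster 1 was led by *Prg4* of the joint lining list, with *Mmp3* and cell division genes such as *Plk1*. Subcluster 3 was led by *Fmod*, of the tenocyte list, and *Comp*. Subcluster 2 was led by *Lars2*, *Camk1d* and *Gphn*, none of them on the fibroblast list, and had few UMIs per cell (medians 1647 and 1707). The quality of its cells was not tested. Subcluster 6 held too few cells for ratios. IGF genes were left out of the features used for clustering.

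Fibroblast-like cells gave 70.4% to 95.9% of the UMIs of each member with FGF8 and 66.4% to 96.8% with BSA. Those cells held 67.9% and 65.7% of all UMIs. *Igfbp2* and *Igfbp4* were the most concentrated there in the FGF8 library (95.9% and 93.4% of their UMIs), and *Igfbp7*, *Igf2r* and *Igf1r* the least (70.4%, 71.8% and 72.9%). The plot of levels by cell type shows the members in 9 cell types of both libraries.

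**Figure D1:**
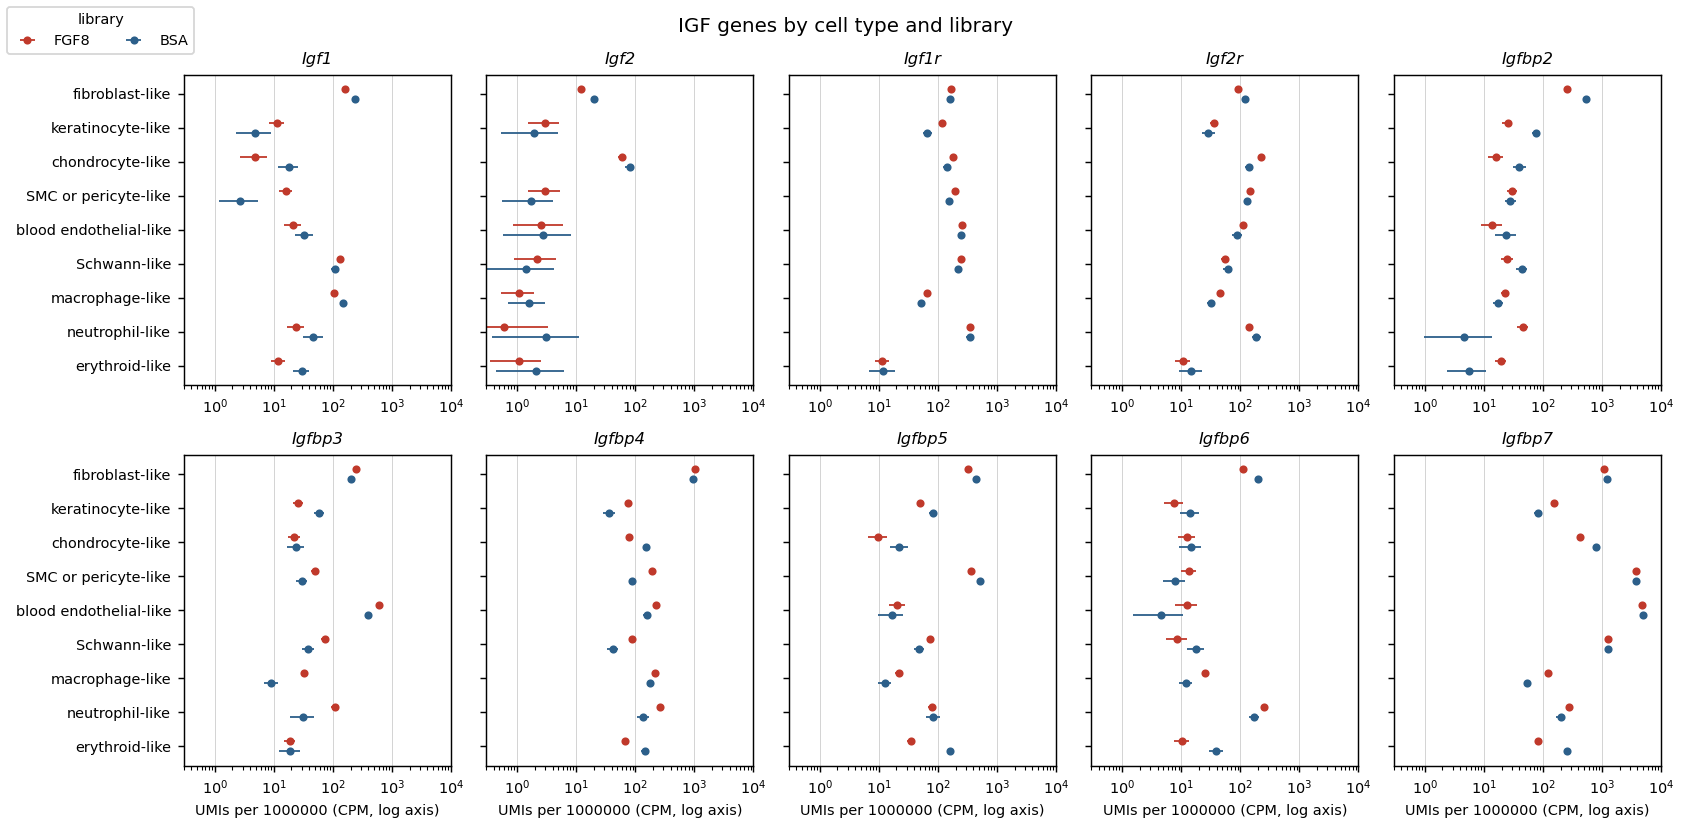
Level of each IGF gene (CPM, log axis) in 9 cell types of the FGF8 (red) and BSA (blue) libraries; bars are exact Poisson 95% intervals, which cover counting error only. *Igfbp7* was highest in blood endothelial-like cells (4842 and 5074 CPM), *Igf2* in chondrocyte-like cells (58.7 and 81.1 CPM) and *Igfbp2* in fibroblast-like cells (261 and 536 CPM).

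Among the ligands, *Igf1*, the main postnatal IGF, was the more abundant in fibroblast-like cells, at 159 CPM (156 to 162) with FGF8 and 240 CPM with BSA. Macrophage-like cells followed at 104 and 148 CPM and Schwann-like cells, the glia of peripheral nerves, at 132 and 109 CPM. The order of macrophage-like and Schwann-like cells therefore differed between the libraries. Every other type was below 50 CPM in both libraries for *Igf1*, apart from the few lymphatic endothelial-like cells of the BSA library (64.0 CPM). *Igf2*, the imprinted fetal growth factor, was at 58.7 CPM (FGF8) and 81.1 CPM (BSA) in chondrocyte-like cells. Fibroblast-like cells held *Igf2* at 11.9 and 19.9 CPM, and no other type exceeded 5 CPM in either library.

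The receptors were spread over more cell types than the ligands. *Igf1r*, which binds both ligands, was highest in neutrophil-like cells (353 and 348 CPM), then in blood endothelial-like (262 and 250) and Schwann-like cells (245 and 224), and the intervals of the last pair overlapped. Erythroid-like cells had *Igf1r* at 11.5 and 12.0 CPM. Neutrophil-like cells had few UMIs per cell (medians 2413 and 3214), as did fibroblast-like subcluster 2. *Igf1r* in subcluster 2 was at 386 and 293 CPM, against 170 and 163 CPM in all fibroblast-like cells. Mast-like cells, with medians of 3951 and 6092 UMIs, had *Igf1r* at 101 and 196 CPM. The part of depth in these levels was not tested. *Igf2r*, the clearance receptor, was highest in chondrocyte-like cells of the FGF8 library (225 CPM) and in neutrophil-like cells of the BSA library (187 CPM). *Igf2r* overlaps the antisense RNA *Airn*, whose level across cell types followed it more closely than that of any other gene examined, and *Igf1*, *Igf2*, *Igf1r*, *Igfbp3*, *Igfbp6* and *Igfbp7* also overlap genes of the opposite strand. Cell Ranger was run at its defaults, which for 3′ libraries count reads of the sense strand. *Igf2*, *Igf1r* and *Igf2r* also overlap genes of the same strand, and the part of overlapping genes in these counts was not tested.

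Among the binding proteins, *Igfbp7* and *Igfbp4* were the most abundant in fibroblast-like cells of both libraries. *Igfbp7*, a vascular matrix protein that binds IGFs weakly, reached 4842 and 5074 CPM in blood endothelial-like cells, 3813 and 3782 CPM in smooth muscle or pericyte-like cells, and 1260 and 1256 CPM in Schwann-like cells. *Igfbp3*, the chief IGF carrier in plasma, was also highest in blood endothelial-like cells (602 and 401 CPM), ahead of fibroblast-like cells (252 and 202 CPM). *Igfbp5*, which binds matrix and bone mineral, was at 360 and 515 CPM in smooth muscle or pericyte-like cells, next to 327 and 448 CPM in fibroblast-like cells. *Igfbp2* and *Igfbp4*, by contrast, were highest in fibroblast-like cells. *Igfbp6*, which prefers IGF2 over IGF1, stood with FGF8 at 252 CPM in neutrophil-like cells and 112 CPM in fibroblast-like ones, and with BSA at 171 and 199 CPM.

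Free RNA from broken fibroblasts can put UMIs into other droplets, so each level was set beside the one that fibroblast RNA would bring along, scaled by the collagen genes *Col1a1*, *Col1a2* and *Col3a1* in the same cells. That collagen stood at 10.1% (FGF8) and 4.59% (BSA) of the fibroblast-like level in macrophage-like cells and at 25.7% and 6.12% in neutrophil-like cells. *Igf1* in macrophage-like cells was 6.45 and 13.4 times the level so scaled. *Igfbp6* in neutrophil-like cells was 8.82 and 14.0 times it, *Igfbp3* in blood endothelial-like cells 43.3 and 29.1 times, and *Igf2* in chondrocyte-like cells 40.2 and 25.0 times. *Igfbp3* in macrophage-like cells (32.3 and 9.17 CPM) was near it, at 1.26 and 0.986 times. Types that make collagen themselves, such as smooth muscle or chondrocyte-like cells, are scaled too high by this measure.

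In fibroblast-like cells, 3 of the 10 members were higher with FGF8 and 7 lower, with a median log2 ratio of −0.40, where the median over 14266 genes with at least 100 UMIs was −0.07. *Igfbp2* had the largest difference: 261 CPM with FGF8 and 536 CPM with BSA, a log2 ratio of −1.04 (−1.07 to −1.01). It was the 1 member more than 2-fold lower, and 0 members were more than 2-fold higher. Of genes with at least 100 UMIs, 3.32% were more than 2-fold higher and 2.19% more than 2-fold lower; of 20106 genes with at least 10 UMIs, these shares were 6.70% and 5.05%. All 10 members passed both minimums. The *Igfbp2* ratio fell short of 2-fold under a stricter cell filter (−0.69), thinning to 5000 UMIs (−0.69), equal weight of cells (−0.75) and centring on the median of all genes (−0.97). It fell furthest short, at −0.48, when both libraries were given the same mixture of subclusters.

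Of the ligands, *Igf1* differed by −0.60 (−0.64 to −0.56) and *Igf2*, from 835 and 709 UMIs, by −0.74 (−0.88 to −0.59). The receptors differed less. *Igf1r* stood at 170 and 163 CPM, a log2 ratio of 0.07 (0.02 to 0.11), and *Igf2r* at 92.6 and 118 CPM, a log2 ratio of −0.35 (−0.41 to −0.30). The *Igf1* and *Igf2* ratios were smaller in male-called cells, at −0.31 and −0.08 (−0.40 to 0.26 for *Igf2*), and *Igf1* moved to −0.12 when both libraries were given the BSA library's mixture of the subclusters described next.

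The binding proteins were split. *Igfbp6*, at 112 and 199 CPM, differed by −0.84 (−0.88 to −0.79), and *Igfbp5*, at 327 and 448 CPM, by −0.45 (−0.48 to −0.42). *Igfbp7* was close to level at 1072 and 1215 CPM (log2 ratio −0.18), and its sign turned under a stricter cell filter (0.02). Higher with FGF8 were *Igfbp3*, at 252 and 202 CPM (log2 ratio 0.32, 0.28 to 0.36), and *Igfbp4*, at 1015 and 954 CPM (0.09, 0.07 to 0.11). The plot of ratios by subcluster shows how these values were made up.

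**Figure D2:**
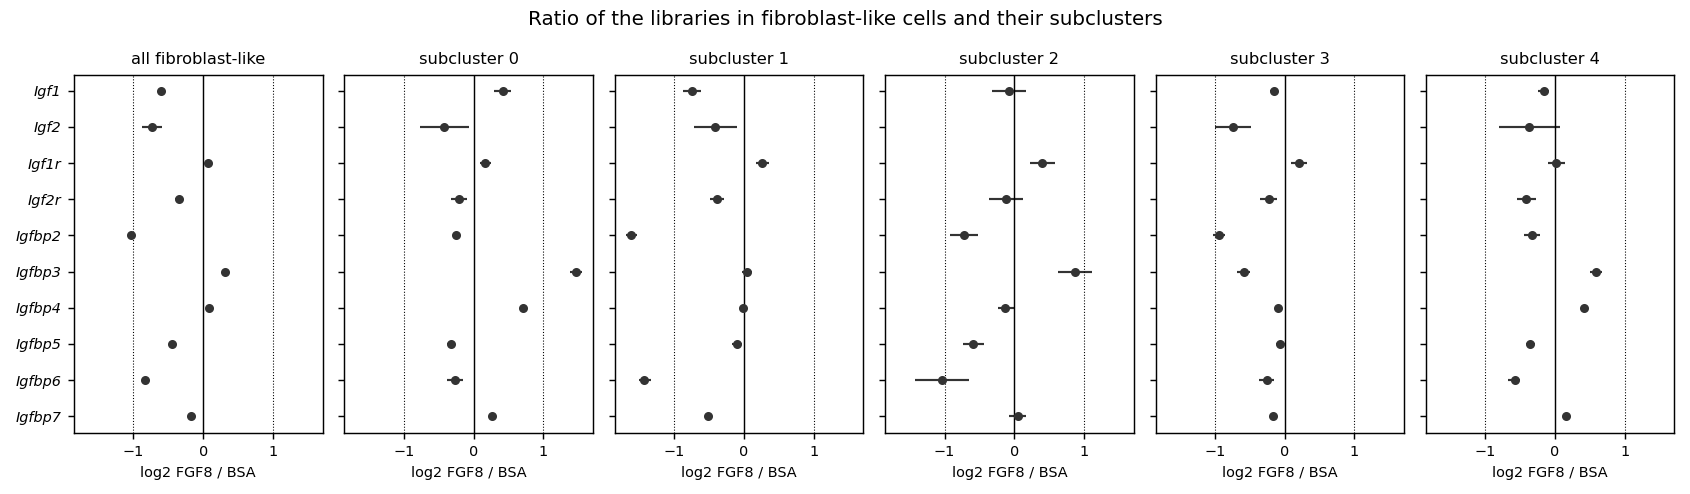
Log2 ratio of CPM, FGF8 over BSA, of the 10 IGF genes in all fibroblast-like cells and in subclusters 0 to 4; bars are exact conditional 95% intervals (counting error only), dotted lines mark 2-fold, and genes under 100 UMIs are left out. *Igfbp3* stood at 1.47 in subcluster 0 and −0.59 in subcluster 3 (0.30 there in male-called cells), and *Igfbp2* was below 0 in every subcluster shown.

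*Igfbp2* and *Igfbp3* carry the largest differences among the subclusters, in opposite directions, so the 250 bases before the start of each gene's canonical transcript are shown, 5′ to 3′ on the gene's strand. In these lines capitals mark the GC box letters GGGCGG read on either strand.

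*Igfbp2* promoter, GRCm39 chr1:72863399-72863648, plus strand: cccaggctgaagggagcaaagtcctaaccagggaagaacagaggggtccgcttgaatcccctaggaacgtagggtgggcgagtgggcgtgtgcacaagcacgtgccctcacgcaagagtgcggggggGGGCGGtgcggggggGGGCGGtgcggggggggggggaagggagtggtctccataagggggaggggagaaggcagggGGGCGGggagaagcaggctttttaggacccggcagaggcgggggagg

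*Igfbp3* promoter, GRCm39 chr11:7164180-7164429, minus strand: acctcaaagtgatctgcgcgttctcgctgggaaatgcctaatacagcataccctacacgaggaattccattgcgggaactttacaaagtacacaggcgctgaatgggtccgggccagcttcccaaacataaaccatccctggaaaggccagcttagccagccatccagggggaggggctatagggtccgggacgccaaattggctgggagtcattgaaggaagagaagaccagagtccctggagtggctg

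The *Igfbp2* stretch is 68.8% G or C and holds GC boxes 123, 108 and 47 bases before the start; the *Igfbp3* stretch is 54.8% G or C and holds none. Over 21418 protein-coding promoters of the same length the median was 53.2%, and 36.4% held a GC box, as did 5 of the 10 members. The AP-1 letters TGANTCA were in 6.18% of promoters and the ETS letters CCGGAA in 12.3%, and 0 of the 10 members held either. TATAAA was in 11.9% of promoters and in those of *Igfbp4* and *Igfbp6*. Each motif was searched on both strands; a match is only a match of letters, and no match says only that these letters are not in this window. *Igfbp2* lies on chromosome 1 (72863606 to 72891634, its outermost transcripts included; the canonical one starts at 72863649), and *Igfbp5*, which points toward it from the opposite strand (72897091 to 72914043), ends 5456 bases from its end. *Igfbp3* lies on chromosome 11 (7156086 to 7164179).

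Subcluster 0 held 924 FGF8 and 653 BSA cells, 25.9% and 35.4% of fibroblast-like cells, and carried the highest *Igfbp2* of the 5 subclusters compared, at 852 and 1015 CPM. The *Igfbp2* ratio there was −0.25 (−0.29 to −0.22) when pooled. By called sex it was further from 0, at −0.93 (female) and −0.49 (male). *Igfbp3* differed more: 352 CPM (342 to 363) with FGF8 and 128 CPM (121 to 134) with BSA, a log2 ratio of 1.47 (1.38 to 1.55). By called sex the *Igfbp3* ratio was 1.27 (female) and 2.29 (male). After each cell was thinned to 2000 UMIs, an *Igfbp3* UMI was found in 25.0% of subcluster 0 with FGF8 (22.2% to 27.9%) and 13.4% with BSA (10.9% to 16.3%). In erythroid-like cells, which should lack it, the thinned shares were 3.55% and 1.33%. Without thinning, the *Igfbp3* shares of subcluster 0 were 51.8% (FGF8) and 36.3% (BSA), at median depths of 13483 and 17757 UMIs, against 10.1% and 11.1% of erythroid-like cells at 6983 and 18691 UMIs.

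*Igfbp3* was the 1 member more than 2-fold higher in subcluster 0, and 0 were more than 2-fold lower, where 1.11% and 0.160% of 11255 genes were. *Igfbp4*, whose cleavage by PAPPA frees IGF, was at 631 and 386 CPM there, a log2 ratio of 0.71 (0.66 to 0.76). *Igf1* was at 106 and 79.5 CPM, but its ratio of 0.42 did not keep its direction by sex (−0.13 and 1.30). The members' median in subcluster 0 was −0.02, beside −0.00 over all genes.

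Subcluster 1 made up 30.7% of fibroblast-like cells with FGF8 (1096 cells) and 15.7% with BSA (289 cells), and 53.7% and 25.3% of their UMIs. These shares are given as weights, since the genes that lead the subcluster themselves differ between the libraries. *Igfbp2* in it stood at 94.5 CPM (91.5 to 97.7) with FGF8 and 290 CPM (279 to 301) with BSA, a log2 ratio of −1.62 (−1.69 to −1.54). *Igfbp6* stood at 75.8 CPM (73.0 to 78.6) and 204 CPM (195 to 213), a log2 ratio of −1.43 (−1.51 to −1.34). These were the 2 members more than 2-fold lower, and 0 were more than 2-fold higher, where 4.28% and 1.97% of 11977 genes were. Both held within each sex: −2.27 and −2.17 for *Igfbp2* and −1.47 and −1.49 for *Igfbp6*. Thinned to 2000 UMIs, 12.3% (10.4% to 14.4%) and 21.3% (16.7% to 26.4%) of cells had an *Igfbp2* UMI, beside 3.34% and 1.33% of erythroid-like cells; without thinning these shares were 42.1% and 48.1%, beside 10.4% and 8.64%, and the median depths of subcluster 1 were 34086 and 30919 UMIs.

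Other members differed less in subcluster 1. *Igf1* was at 50.1 and 84.2 CPM, a log2 ratio of −0.75, and *Igfbp7* at 890 and 1279 CPM, a log2 ratio of −0.52. *Igfbp3* (199 and 194 CPM) and *Igfbp4* (755 and 765 CPM) were near level when pooled (0.04 and −0.02) but went opposite ways by sex. *Igfbp3* gave 0.16 (0.05 to 0.27) and −0.33 (−0.46 to −0.19), and *Igfbp4* 0.19 (0.13 to 0.24) and −0.46 (−0.52 to −0.39). The members' median was −0.40, beside −0.04 over all genes in these cells.

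Of the 5 subclusters compared, *Igf1* and *Igfbp4* were highest in subclusters 3 and 4, which held a smaller share of FGF8 than of BSA cells. *Igf1* was at 505 and 560 CPM in subcluster 3 and at 358 and 399 CPM in subcluster 4, with log2 ratios of −0.15 and −0.16. By sex the *Igf1* ratio was −0.67 and −0.30 in subcluster 3, but −1.10 (−1.28 to −0.93) and 0.28 (0.12 to 0.45) in subcluster 4, where its direction turned. *Igfbp4* reached 2926 and 2189 CPM in subcluster 4 (0.42, 0.39 to 0.45), and its direction turned by sex too (0.58 and −0.16). *Igfbp6* was there at 315 and 472 CPM (−0.58) and *Igfbp7* at 2180 and 1959 CPM (0.15). In subcluster 3, *Igfbp3* was lower with FGF8, at 191 and 288 CPM (−0.59, −0.68 to −0.50). By sex it was at −1.26 in female-called cells, while in male-called cells it was at 209 and 170 CPM (0.30). *Igfbp2* there was at 175 and 336 CPM, a log2 ratio of −0.94 (−1.07 and −1.08 by sex).

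In subcluster 2, with few UMIs per cell, *Igfbp3* gave 0.87 (0.62 to 1.12) and *Igfbp6* −1.04 (−1.43 to −0.65), the latter from 105 and 118 UMIs.

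With FGF8, *Igf1* thus ran from 50.1 CPM in subcluster 1 to 505 CPM in subcluster 3, among the 5 subclusters compared. When both libraries were given the subcluster mixture of the BSA library, an alternative chosen after seeing the data, the *Igf1* ratio in fibroblast-like cells moved from −0.60 to −0.12, *Igfbp2* from −1.04 to −0.48 and *Igfbp6* from −0.84 to −0.62. *Igfbp3* moved from 0.32 to 0.49 and *Igfbp4* from 0.09 to 0.23. The members' median was then −0.19, and 0 members were past 2-fold.

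Division genes moved with these differences. A UMI of *Mki67* or *Top2a*, both made by dividing cells, was found in 1709 fibroblast-like cells with FGF8 (47.8%) and 420 with BSA (22.8%). Thinned to 2000 UMIs, these shares were 25.0% (23.5% to 26.5%) and 10.2% (8.75% to 11.7%), beside 4.80% and 2.67% of erythroid-like cells and 17.6% and 4.73% of neutrophil-like cells; no cell type here is sure to lack dividing cells, so these are shares of cells with a UMI, not of dividing cells. Of the fibroblast-like cells with such a UMI, 56.3% (FGF8) and 44.3% (BSA) lay in subcluster 1, so this split overlaps that by subcluster. Among cells with such a UMI, *Igfbp2* was at 168 CPM with FGF8 and 449 CPM with BSA, a log2 ratio of −1.42 (−1.47 to −1.37). Among the other cells it was at 430 and 577 CPM (−0.42, −0.46 to −0.39). *Igf1* was at 105 and 229 CPM in the former (−1.12) and at 256 and 245 CPM in the latter (0.06, 0.01 to 0.11).

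*Igfbp6* gave −1.08 among cells with a division UMI and −0.43 among the others. *Igfbp3* was higher with FGF8 in both, at 0.25 and 0.50, while *Igfbp4* gave −0.07 and 0.35. Read within a library, the log2 ratio of cells with a division UMI over the rest was −1.28 (FGF8) and −0.10 (BSA) for *Igf1*, and −1.35 and −0.36 for *Igfbp2*. Cells with a division UMI were deeper (median 26205 and 27640 UMIs) than the others (12832 and 17003), and the part of depth or of division in these ratios was not tested.

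**Figure D3:**
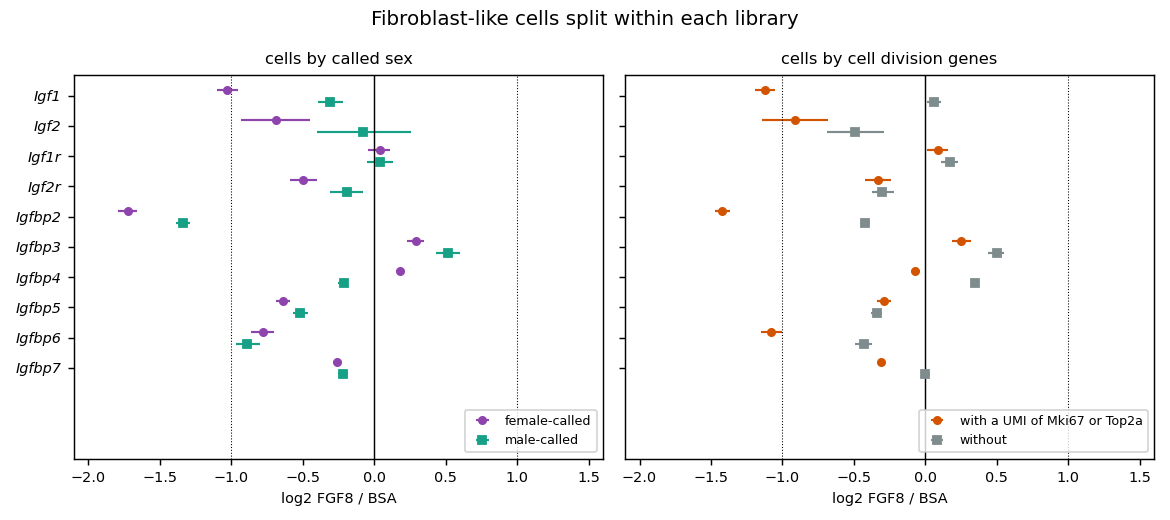
Log2 ratio of CPM, FGF8 over BSA, in fibroblast-like cells split by called sex (left) and by a UMI of *Mki67* or *Top2a* (right); bars are exact conditional 95% intervals (counting error only) and dotted lines mark 2-fold. *Igfbp2* was below 0 in all 4 splits, whereas *Igfbp4* was above 0 in female-called cells (0.18) and below it in male-called cells (−0.21).

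Sex makeup differed between the libraries, and several ratios differed by called sex; the part of sex in the pooled ratios was not tested beyond these values. *Igfbp2* was at 141 and 467 CPM in female-called fibroblast-like cells and at 301 and 762 CPM in male-called ones, so it was higher in male-called cells of either library and lower with FGF8 in either sex (−1.72 and −1.34). *Igfbp6* gave −0.78 and −0.89 and *Igfbp5* −0.64 and −0.52. *Igf1* gave −1.03 in female-called cells, past 2-fold, and −0.31 in male-called ones. *Igf2* gave −0.69 in female-called cells, and *Igfbp4* 0.18 and −0.21. *Igfbp4* was the 1 member whose intervals lay on opposite sides of 0; those of *Igf2* in male-called cells and of *Igf1r* in either sex (0.04 and 0.04) included 0.

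Some ratios outside fibroblast-like cells, of members more than 2 times above the collagen-scaled level in both libraries, follow. *Igf1* in macrophage-like cells gave −0.51 (−0.65 to −0.38; −0.75 and −0.65 by sex) and *Igf2r* there 0.51 (0.26 to 0.77; 0.57 and 0.67 by sex). *Igf2* in chondrocyte-like cells gave −0.47 (−0.80 to −0.13; −0.75 and −0.62 by sex), and *Igf2r* there 0.69 (0.47 to 0.91; 0.76 and 0.31 by sex). *Igfbp7* in them was at 435 and 793 CPM (−0.87, −0.98 to −0.76; −0.70 and −1.53 by sex). When pooled, the chondrocyte-like cells, 134 and 53 in number, thus had less *Igf2* and more *Igf2r* with FGF8. Male-called ones numbered 79 and 11, and their *Igf2r* interval included 0 (−0.11 to 0.75).

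In vessels, *Igfbp7* was level in blood endothelial-like cells (−0.07) and in smooth muscle or pericyte-like cells (0.01), as in Schwann-like cells (0.01). *Igfbp3* in blood endothelial-like cells gave 0.59 (0.43 to 0.75; 1.24 and 0.65 by sex), higher with FGF8 when pooled, as in fibroblast-like cells. The values by sex rest on 32 and 47 female-called and 72 and 12 male-called cells. Re-clustering gave a larger part (88 and 55 cells) with a ratio of 0.86 (0.67 to 1.06). The smaller part (44 and 23 cells, too few for a ratio) was at 636 and 656 CPM. The share of all blood endothelial-like cells with an *Igfbp3* UMI was not higher (59.1% and 62.8%), and 1 cell held 149 of 1170 UMIs with FGF8 and 1 held 75 of 435 with BSA. *Igfbp5* in smooth muscle or pericyte-like cells gave −0.52 (−0.63 to −0.41; −1.18 and −0.07 by sex). In neutrophil-like cells *Igf1r* was level (0.02), *Igf2r* gave −0.39 and *Igfbp6* 0.56 (0.25 to 0.88), the opposite direction to its ratio in fibroblast-like cells but not seen in the few female-called cells (−0.15, against 0.62 in male-called ones). *Igf1r* in keratinocyte-like cells was at 120 and 67.0 CPM (0.84, 0.56 to 1.12; 0.63 and 1.05 by sex).

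The wider pathway was read from a list of 56 genes chosen by role, and 50 of them reached 10 UMIs over the fibroblast-like cells. Of these, 23 were above 0 and 26 below, with a median of −0.02, beside −0.07 over all genes with as many UMIs. The share of all genes above 0 was not counted. The list held 1 gene more than 2-fold lower, *Htra1*, beside 5.05% of all genes with as many UMIs, and 1 more than 2-fold higher, *Adam28*, beside 6.70%; *Adam28* rested on 8 and 2 UMIs. *Htra1*, a secreted protease that can cut binding proteins, was at 225 CPM with FGF8 and 462 CPM with BSA, a log2 ratio of −1.04 (−1.07 to −1.01; −1.33 and −0.93 by sex). *Pappa*, the protease of IGFBP4, was level when pooled, at 91.4 and 94.3 CPM (−0.05), but went opposite ways by sex (0.13 and −0.27).

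By role, the 8 mTOR genes had a median of 0.15 with 6 above 0 and 2 below, and the 13 genes of PI3K, AKT and FOXO a median of −0.10. The insulin receptor family and receptor substrates had a median of −0.24 over 7 genes. The growth hormone axis had 0.26 over 6 genes, and proteases of binding proteins with their inhibitors −0.04 over 10. Neighbours and regulators of imprinted *Igf2* and *Igf2r* had −0.28 over 4 genes, and other ligand, binding and carrier genes 0.30 over 2. Among genes named after their values were seen, *Irs1* (−0.70) and *Irs2* (0.58), both adaptors of the IGF1 receptor, differed in opposite directions. *H19*, the imprinted neighbour of *Igf2*, was at 279 and 448 CPM, a log2 ratio of −0.69, close to that of *Igf2*. *Ghr*, the growth hormone receptor, gave −0.57, and *Stat5a*, which acts downstream of it, 0.85.

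**Figure D4:**
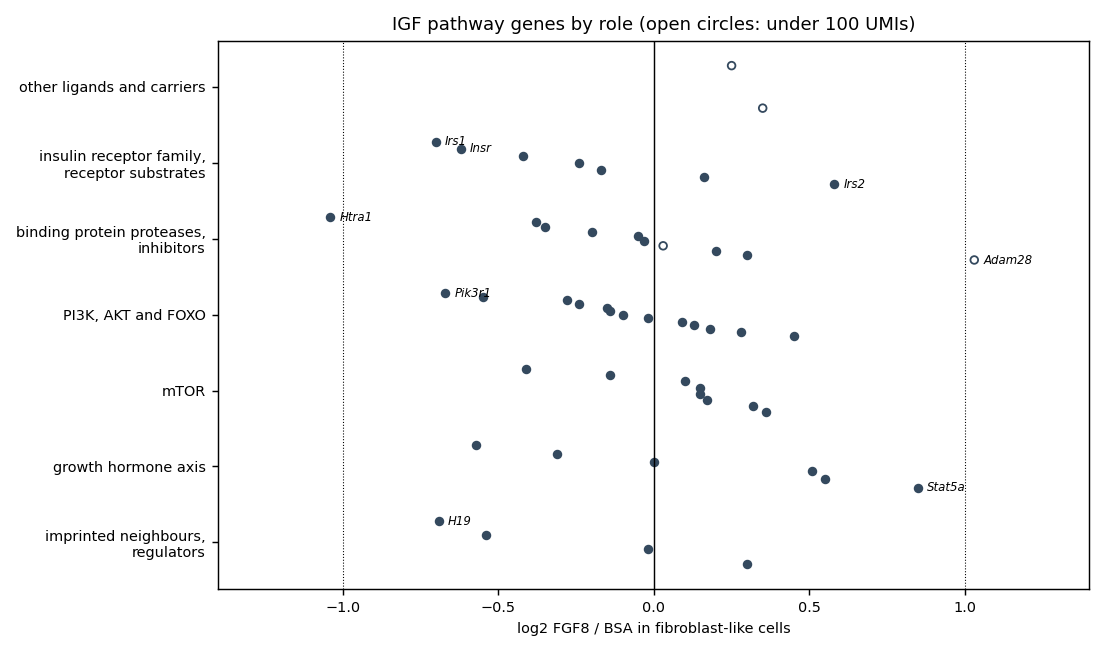
Log2 ratio of CPM, FGF8 over BSA, in fibroblast-like cells for the 50 listed IGF pathway genes with at least 10 UMIs, grouped by role; open circles mark genes under 100 UMIs and dotted lines mark 2-fold. *Htra1* lay past 2-fold lower at −1.04, *Adam28* past 2-fold higher on 10 UMIs, and the whole list had a median of −0.02.

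Over 21 points, each a cell type in 1 library, the genes closest to each member were named by Pearson's r of log2(CPM + 1) among 12499 genes. The points share libraries and depth, so r is a description. *Igf2* was closest to *Omd*, *Nrk* and *Sdk2* (0.934 to 0.921), and *Igf2r* to *Airn* (0.903), *Chsy1* and *Fndc3b*. *Igf1r* was closest to *Mbnl2* (0.948), *Gm49797* and *Atf2*, and *Igf1* to *Rnase4* (0.780), *Tnfsf8* and *Myo16*.

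Of the binding proteins, *Igfbp7* was closest to *Tmem47* (0.953), *Armcx4* and *Fermt2*, and *Igfbp3* to *Ly6c1* (0.876), *Cdh13* and *Bend7*. *Igfbp2* was closest to *Fbln1* (0.850), *Sema3a* and *AW551984*, *Igfbp4* to *Tnn* (0.867), *Dbx2* and *Loxl1*, *Igfbp5* to *C1s1* (0.899), *Gstm2* and *Ccdc3*, and *Igfbp6* to *Mfap5* (0.856), *Adamtsl4* and *Ptgs2os2*. The lowest of the 10 top values was that of *Igf1*.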

How the data were processed

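Single-cell RNA sequencing of 2 libraries, 1 for FGF8 and 1 for BSA, was analysed. The authors made the deposited counts, raw UMI counts per gene and barcode, with Cell Ranger 9.0.0 at default parameters on GRCm39; their cell filters had not been applied. Kept cells had more than 200 and fewer than 7500 genes and under 15% mitochondrial UMIs. Clustering used SCTransform, CCA integration, 30 principal components and resolution 0.05 (0.2 for subclusters) in Seurat 5.3.0 (sctransform 0.4.2, R 4.3.3), without IGF and sex-linked genes. Clusters were named from marker lists, by rules completed after clusters were seen: a subcluster whose closest lists were all of connective tissue was kept as fibroblast-like when it had at least 8 of the 10 fibroblast markers, whatever its leading genes.

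Sums of UMIs by library and cell type were made in Python 3.11.15 (numpy 2.4.6, scipy 1.17.1, pandas 2.3.3; figures with matplotlib 3.10.9). Intervals are exact Poisson for levels, exact conditional binomial for ratios and Clopper-Pearson for shares. The calculation of the ratios was checked on simulated Poisson counts, which held no spread between cells and no true difference close to 2-fold. Such a check cannot show how the ratios behave near that cut or with UMIs clumped in few cells. Ratios outside the fibroblast-like total needed 50 cells in each library and 100 UMIs over both. Ratios by called sex were given without these minimums, and several outside fibroblast-like cells rest on few cells. Scrublet (scanpy 1.11.5) called 0 doublets in either library and so did not work; none were removed from the values given, and an alternative left out the 389 and 96 cells of highest score. Columns of per-sample values left unused numbered 0. Positions and promoters are from GENCODE vM39 on GRCm39.

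Named genes are the 10 members, pathway genes past 2-fold with at least 100 UMIs, and the 3 genes most like each member; *Adam28*, *Pappa*, *H19*, *Irs1*, *Irs2*, *Ghr* and *Stat5a* fall outside that rule and were named after their values were seen. The members, lists and alternatives were chosen with earlier results of these data known. Other cell filters, clusterings, weightings, thinning, sexes, centring, folds and UMI minimums were tried as alternatives.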

Additional observations from a re-analysis of the deposited data

Results flagged for a closer look

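*Igfbp3* differed in direction between subclusters of fibroblast-like cells: its log2 ratio, FGF8 over BSA, was 1.47 in subcluster 0 and −0.59 in subcluster 3. Female-called cells differed likewise (1.27 and −1.26), but in male-called cells both ratios were above 0 (2.29, and 0.30 with an interval of 0.06 to 0.55). The difference between the subclusters was not tested, since each condition is 1 library. *Igfbp4* differed in direction by called sex in fibroblast-like cells, 0.18 (female) and −0.21 (male), and that difference was not tested either.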

How the results depend on the processing

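Across the 14 alternatives that can change a ratio in fibroblast-like cells, the direction held in all 14 for 8 of the 10 members; *Igfbp4* turned in 1 (male-called cells, −0.21) and *Igfbp7* in 2 (0.02 under the stricter cell filter, 0.01 with thinning to 5000 UMIs). *Igfbp2* stayed past 2-fold in 9 of 14 and ran from −1.72 to −0.48. The alternatives of clustering features, integration and resolution left nearly the same fibroblast-like cells (3569 to 3573 with FGF8, beside 3574). *Igfbp2* gave −1.04 in each of these. Removing high Scrublet scores or subcluster 2, or keeping keratinocyte-like cells, also left it at −1.04 or −1.05. Such settings could hardly change a ratio, so counts out of 14 are not counts of independent checks. The members' median ran from −0.57 to −0.19.

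Members more than 2-fold lower numbered 1, but 0 under the stricter cell filter, centring on the median of all genes, equal weight of cells, thinning to 5000 UMIs and the same mixture of subclusters, 2 in female-called cells and 4 at a fold of 1.5; of all genes with at least 10 UMIs, 7.44% were that much lower in female-called cells and 15.4% at a fold of 1.5, with 13.7% higher. Pathway genes more than 2-fold lower numbered 1, but 0 under the stricter filter, in male-called cells, with centring, equal weight and the same mixture, and 5 at a fold of 1.5. Pathway genes more than 2-fold higher numbered 1, but 2 at a fold of 1.5, with no minimum of UMIs and with equal weight, and 0 with at least 100 UMIs, without subcluster 2 and with the same mixture. Of all genes, 6.61% were more than 2-fold higher with no minimum of UMIs, and no such share is given with equal weight. In subcluster 0, members more than 2-fold higher numbered 1, but 2 at a fold of 1.5 (3.17% of all genes there). In its male-called cells *Igf1* (1.30) was past 2-fold beside *Igfbp3* (2.29), and no share of all genes is given for them. The causes were not tested.

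Of 104 ratios in other cell types and subclusters, 83 kept their sign under every alternative that gave a value and 21 did not. A called sex with under 50 cells in either library gave no value here, so the 83 include ratios that turned by sex. Among them are *Igfbp3* in subcluster 3 (0.30 in male-called cells) and *Igfbp6* in neutrophil-like cells (−0.15 in female-called cells). *Igf1* and *Igfbp4* in subcluster 4 are others (0.28 and −0.16 in male-called cells). Among ratios past 2-fold, *Igfbp7* in macrophage-like cells (1.16) turned to −0.09 in female-called cells and *Igfbp4* in erythroid-like cells (−1.13) to 0.10 with equal weight of cells. Leaving out subcluster 2, keeping keratinocyte-like cells in and the same mixture of subclusters were chosen after seeing the data. Subclusters were not rebuilt under other clusterings. No paired analysis was possible because each condition has 1 library.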
